A study of Homo sapiens with 16 samples.

Results

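The 8 genes FOXN4, CDC20B, FOXJ1, MCIDAS, CCNO, RFX2, RFX3 and TP73, which set the fate of multiciliated cells, were followed across all arrays. They were chosen by gene symbol, and every probe that the platform annotation gives to one of them was taken. That gave 10 of 24530 probes, for 7 of the 8 genes, where the array names 17553 genes in all. MCIDAS had no probe under its symbol or gene identifier and was not analysed here. FOXN4 and CDC20B were included because earlier results of these data showed them lower with doxycycline in one hairpin line and higher in another, so every value of theirs that uses an array of those lines, with or without doxycycline, is given as a description, with no test. FOXN4, CDC20B, FOXJ1 and CCNO passed the filter on dim probes, which asked for a detection p-value under 0.01 on at least 2 of 16 arrays. RFX2, RFX3 and TP73 did not.

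Multiciliated cells carry a brush of motile cilia and line the airway, the oviduct and the brain ventricles. A progenitor enters this fate when Notch signalling is low. MCIDAS (multicilin), a relative of geminin, then binds E2F4 or E2F5 with its DP partner and switches on the genes that multiply centrioles, CCNO and CDC20B among them. FOXJ1 and the RFX factors switch on the genes of the motile axoneme, and TP73 and FOXN4 act with them. T47D cells come from a breast cancer of luminal type and are not a multiciliated tissue.

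The cells were T47D-MTVL, which hold a stably integrated luciferase gene under the MMTV promoter. RNA of 16 samples, 2 for each of 8 groups, was measured on Illumina bead arrays. The hairpin lines all expressed a KRAB repressor fused to the Tet regulator together with RedFP, carried 1 hairpin vector each and had been sorted for RedFP and GFP fluorescence. Group Ctrl carried a random hairpin, sh120 a hairpin against histone H1.4, and sh225 a hairpin against multiple H1 variants, each without doxycycline (Dox). Groups Ctrl_Dox, sh120_Dox and sh225_Dox were the same lines with Dox at 2.5 µg/mL for 6 days, passaged at day 3 and moved to serum-free medium at day 4. Groups WT and K26 were untreated lines that overexpressed HA-tagged H1.4, wild type or with the K26A change. Each genotype was represented by 1 line, and nothing in the labels tells if both samples of a group came from different cultures; each p-value then reflects array-to-array spread that may be technical.

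Between 9477 and 10286 probes were detected per array, and the replicates of a group correlated at r = 0.989 to 0.994 over 9654 tested items. As a check of the labels, H1-2 fell by 2.75 ± 0.15 (log2 difference ± SE, adjusted p = 6.09e-11) with Dox in the sh225 line, and H1-4 was detected on all 4 arrays of the overexpression lines and on none of the 12 others, so depletion of H1.4 with sh120 cannot be checked here. H1-2 was also higher than in Ctrl in WT (1.48 ± 0.15, adjusted p = 4.40e-07) and K26 (2.68 ± 0.15, adjusted p = 6.41e-11). So was H1-10, by 0.50 ± 0.14 (adjusted p = 0.0118) and 0.74 ± 0.14 (adjusted p = 0.000236). Of 11 luminal markers all passed the filter, and 8 of them, KRT8, KRT19, CDH1, GATA3, FOXA1, ESR1, PGR and XBP1, were detected on all 16 arrays. Of the basal markers KRT5, KRT14 and MYLK were undetected on every array and ACTA2 was detected on all. The airway secretory markers SCGB1A1 and BPIFB1 and all 5 endothelial markers were undetected, while SCGB3A1 was detected on all arrays. The sample names number the arrays in a pair of runs of 8, with Ctrl and sh120 in the first and sh225, WT and K26 in the second. The median raw intensity was 78.0 to 89.8 in the first run and 97.65 to 105.4 in the second. Comparisons of WT, K26 or untreated sh225 with Ctrl cross the runs, and there the line and the run cannot be told apart.

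CDC20B, MCIDAS and CCNO lie next to each other on chromosome 5, all on the minus strand, within 120.638 kb (GRCh38.p14). CCNO spans chr5:55231152-55233608, MCIDAS chr5:55219564-55227315 and CDC20B chr5:55112971-55173177. The 3 genes of the miR-449 family lie inside the bounds of CDC20B on the same strand, and GPX8, an endoplasmic reticulum peroxidase, lies inside them on the opposite strand. FOXN4 lies on chromosome 12 (chr12:109277978-109309284) and FOXJ1 on chromosome 17 (chr17:76136333-76141245).

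**Figure D1:**
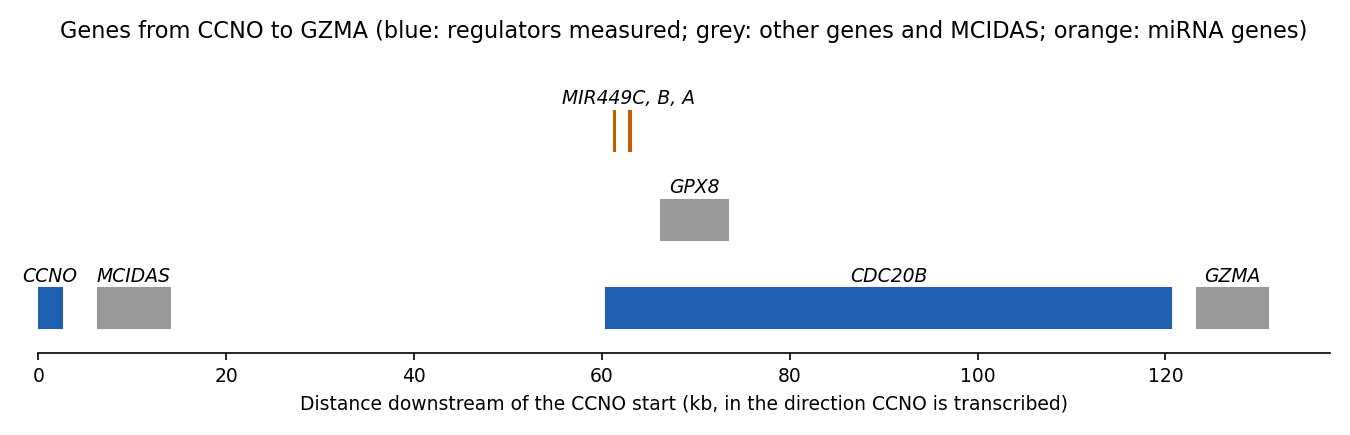
Map of the CDC20B, MCIDAS and CCNO locus, with distance in kb from the start of CCNO in its direction of transcription. CCNO, MCIDAS and CDC20B follow each other over 120.638 kb, with the 3 miR-449 genes and GPX8 inside the bounds of CDC20B.

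The promoters of these neighbours are printed because CDC20B and CCNO moved together in the hairpin lines. Each sequence is from RefSeq (GRCh38.p14), minus strand, 5′ to 3′, from 250 bases before to 50 bases after the annotated start: chr5:55173128-55173427 for CDC20B, chr5:55227266-55227565 for MCIDAS and chr5:55233559-55233858 for CCNO. Capitals mark matches on either strand to GTTGCC, a half-site of the RFX factors, or to TTTNNCGC, an E2F consensus.
CDC20B: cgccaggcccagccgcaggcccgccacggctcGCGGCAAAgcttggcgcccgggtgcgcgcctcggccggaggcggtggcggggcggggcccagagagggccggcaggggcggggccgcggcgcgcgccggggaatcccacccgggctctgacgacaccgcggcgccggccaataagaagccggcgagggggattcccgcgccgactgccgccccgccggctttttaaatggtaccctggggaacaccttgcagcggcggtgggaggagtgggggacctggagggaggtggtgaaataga
MCIDAS: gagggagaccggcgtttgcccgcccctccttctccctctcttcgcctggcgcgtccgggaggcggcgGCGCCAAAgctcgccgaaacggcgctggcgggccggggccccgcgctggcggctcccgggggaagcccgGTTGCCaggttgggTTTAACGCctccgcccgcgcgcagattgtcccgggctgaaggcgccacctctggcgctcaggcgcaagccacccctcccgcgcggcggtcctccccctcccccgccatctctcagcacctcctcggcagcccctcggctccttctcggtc
CCNO: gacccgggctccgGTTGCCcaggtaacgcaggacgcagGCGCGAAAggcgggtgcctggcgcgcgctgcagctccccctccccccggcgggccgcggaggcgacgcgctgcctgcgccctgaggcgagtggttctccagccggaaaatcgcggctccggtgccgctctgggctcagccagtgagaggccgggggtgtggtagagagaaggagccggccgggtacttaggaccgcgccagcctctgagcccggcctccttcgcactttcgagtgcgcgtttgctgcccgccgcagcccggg
The matches do not overlap. CDC20B has 1 E2F match, at position -218 from the start, and no GTTGCC. MCIDAS has 1 GTTGCC at -114 and 2 E2F matches at -183 and -100, and CCNO has 1 GTTGCC at -237 and 1 E2F match at -212. The FOXN4 window, chr12:109309235-109309534, holds neither. GTTGCC occurs in 12.2% of 35116 promoter windows of this length and TTTNNCGC in 6.89%. A match describes these letters only.

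The mature miR-449 sequences inside CDC20B are printed because they share the host's strand; they are known to be abundant in multiciliated cells and to repress Notch pathway transcripts. Their levels were not analysed here. Capitals mark the seed, bases 2 to 8.
hsa-miR-449a: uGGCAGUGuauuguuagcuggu
hsa-miR-449b-5p: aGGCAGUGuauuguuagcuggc
hsa-miR-449c-5p: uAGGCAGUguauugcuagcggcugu
The first pair share the seed GGCAGUG. The seed of hsa-miR-449c-5p, AGGCAGU, starts 1 base earlier in the same run of letters.

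FOXN4 is a forkhead factor that is needed for motile cilia genes in the multiciliated skin cells of Xenopus and acts in retinal development in the mouse. Its raw intensities were 311.9 and 265.0 in sh225 and 110.0 and 120.8 in sh225_Dox. Both treated arrays lay below both untreated ones and neither was detected. In the sh120 line the intensities were 191.2 and 185.1 without Dox and 593.0 and 650.3 with it, so both treated arrays lay above. In Ctrl they were 153.1 and 186.1, in Ctrl_Dox 219.7 and 219.2, in WT 137.8 and 130.9 and in K26 123.1 and 113.8. FOXN4 was detected on 12 of 16 arrays, and the undetected ones were those of sh225_Dox and K26. On the normalized log2 scale the group means ran from 9.22 in sh120_Dox through 7.85 in sh225, 7.47 in Ctrl_Dox, 7.33 in sh120, 6.88 in Ctrl, 6.03 in WT and 5.78 in K26 to 5.74 in sh225_Dox. Of the neighbours in this order, K26 and sh225_Dox alone had overlapping arrays.

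CDC20B, a relative of the mitotic activator CDC20, helps to release new centrioles from deuterosomes, the platforms on which multiciliated cells build them. Its raw intensities were 572.0 and 552.7 in sh225 and 161.4 and 154.8 in sh225_Dox. In sh120 they were 354.3 and 268.8, and in sh120_Dox 855.2 and 963.7. The arrays with and without Dox did not overlap in either line, and the direction was opposite. Ctrl gave 433.7 and 361.0, Ctrl_Dox 354.1 and 423.5, WT 272.3 and 272.1 and K26 256.1 and 290.8. The highest normalized group mean was 9.80 in sh120_Dox, followed by 8.99 in sh225, 8.48 in both Ctrl_Dox and Ctrl, 8.27 in sh120, 7.64 in K26, 7.56 in WT and 6.57 in sh225_Dox. The arrays of Ctrl_Dox and Ctrl, of Ctrl and sh120, and of K26 and WT overlapped, and those of the other neighbours did not.

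FOXJ1 is the master forkhead factor of motile cilia. Its probe was dim: raw intensities were 193.7 and 192.0 in sh225 and 113.5 and 94.1 in sh225_Dox, where it was not detected. They were 135.8 and 126.5 in sh120 and 214.6 and 158.7 in sh120_Dox. Both lines had treated arrays on 1 side of the untreated ones, below in sh225 and above in sh120. Ctrl gave 173.3 and 159.9, Ctrl_Dox 153.0 and 154.4, WT 213.4 and 160.9 and K26 245.9 and 164.0. The normalized group means lay between 6.58 in sh120 and 7.11 in sh120_Dox for every group except sh225_Dox, at 5.44. Only Ctrl_Dox and sh120, and sh120 and sh225_Dox, were neighbours in the order without overlap.

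CCNO (cyclin O) is needed for centriole amplification, and its loss causes a human disorder with too few motile cilia. Its raw intensities were 1730.2 and 1217.2 in sh225 and 746.9 and 630.3 in sh225_Dox. In sh120 they were 975.8 and 954.0, and in sh120_Dox 2021.8 and 1567.3. As for the other members above, Dox left both arrays lower in sh225 and both higher in sh120. Ctrl gave 1204.1 and 1421.8, Ctrl_Dox 1488.1 and 1282.0, WT 3181.9 and 2488.2 and K26 2981.8 and 2245.3. The normalized group means fell in another order than those of FOXN4 and CDC20B: WT at 11.22 and K26 at 11.11 were at the top, and sh225_Dox at 9.16 was again at the bottom. Between them lay sh120_Dox at 10.88, Ctrl_Dox at 10.49, sh225 at 10.45, Ctrl at 10.40 and sh120 at 10.14. Levels of different genes are not compared here, since probes differ in brightness.

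**Figure D2:**
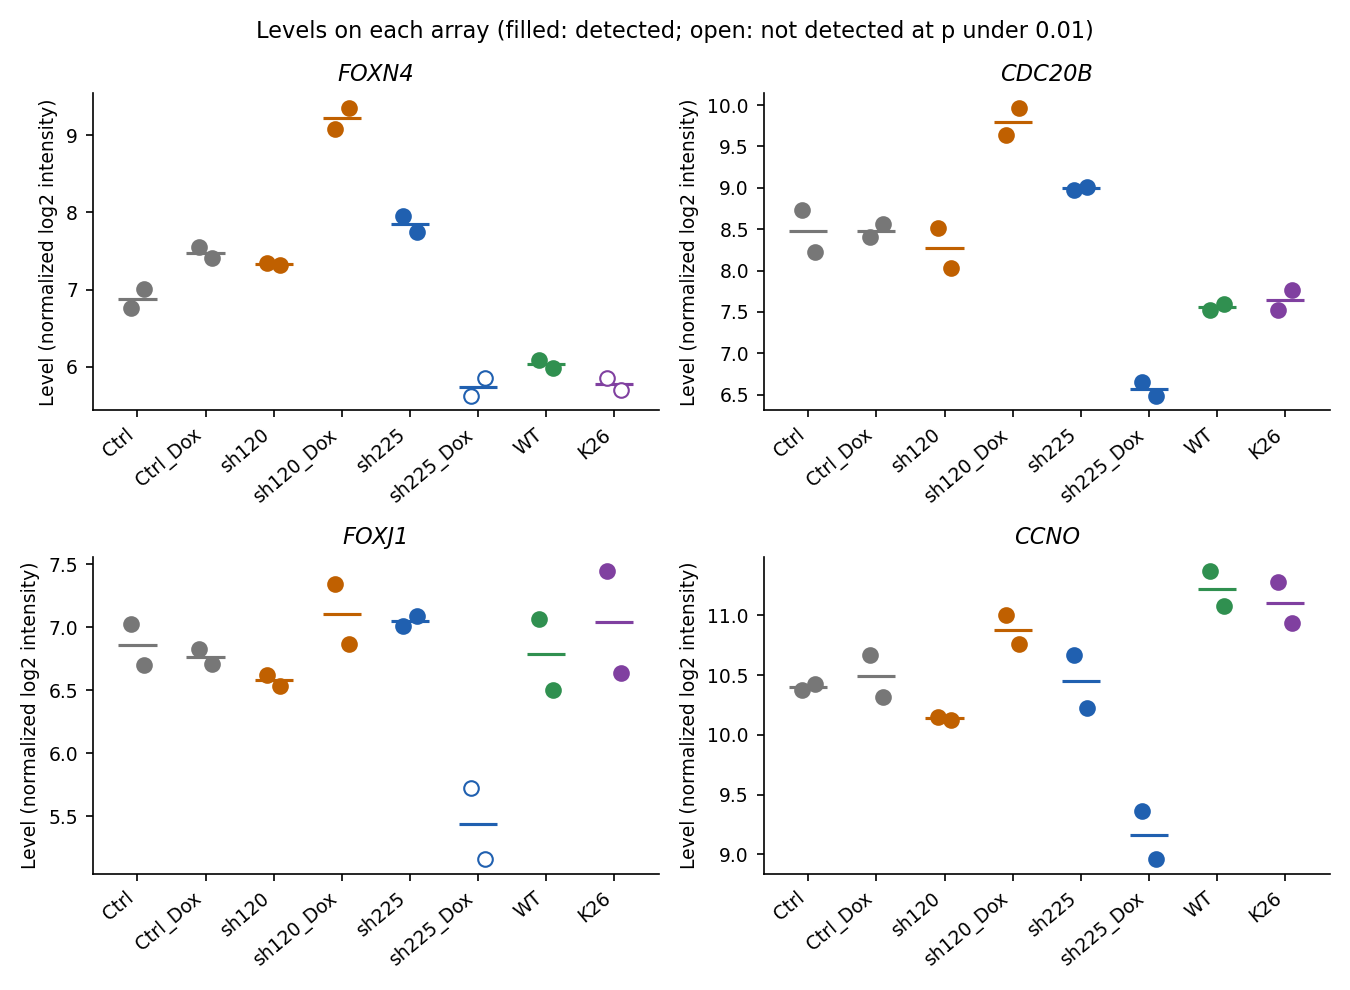
Normalized log2 intensity of FOXN4, CDC20B, FOXJ1 and CCNO on each of the 16 arrays, by group; bars are group means of 2 arrays and open circles are arrays on which the probe was not detected. In all 4 genes sh225_Dox is the lowest group; FOXN4, CDC20B and FOXJ1 are highest in sh120_Dox and CCNO in WT.

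The remaining members gave signals near the background. RFX2, an activator of ciliary genes in multiciliated cells, has 2 probes: 1 was detected on 1 of 16 arrays, sh225 replicate 2, and the other on none. On the former probe the intensities were 111.5 and 121.6 in sh225 and 87.4 and 80.2 in sh225_Dox, and 76.8 to 97.8 over the other groups. The sh225 arrays were its highest. RFX3, which serves ciliogenesis in many tissues, has 3 probes with intensities of 52.0 to 108.1, none detected on any array. TP73, the p53 relative that activates FOXJ1 and other multiciliated genes in the mouse airway, gave 51.7 to 76.6 and was detected on none. When the filter was dropped, RFX2 passed the test with Dox in the sh225 line (adjusted p = 0.00152) and in its difference from Ctrl (adjusted p = 0.0211), but no size is given because the probe was not detected on any sh225_Dox array and on 1 of 2 sh225 arrays.

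The first comparison asked what changed when Dox switched on each hairpin. In the sh225 line FOXN4 was at least 3.83-fold lower and CDC20B was lower, at -2.43 ± 0.18 (log2 difference ± SE). These were the values that chose both genes. All 4 tested members had both treated arrays below both untreated ones. For FOXN4 and CDC20B this was tied to their choice. Only FOXJ1 and CCNO, 2 of 2, can be set against the 31.7% of all items that did so. The rule did not use FOXJ1 or CCNO. FOXJ1 fell, being at least 2.20-fold lower (adjusted p = 5.09e-05), and CCNO fell by 1.29 ± 0.17 (adjusted p = 6.71e-06). Thus 2 of 2 testable members were called, where 35.6% of all items were called and 18.5% were called lower. In bulk samples, fewer cells with a transcript and less of it per cell cannot be told apart.

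In the sh120 line the members lay the other way, with both treated arrays above both untreated ones in 4 of 4. This was again tied to the choice of FOXN4 and CDC20B. Only FOXJ1 and CCNO can be set against the 30.4% of all items that did so. FOXN4 was higher by 1.89 ± 0.15 and CDC20B by 1.53 ± 0.18, again as a description. CCNO rose by 0.74 ± 0.17 (adjusted p = 0.00586). That call was lost without sh120_Dox replicate 1, at an adjusted p of 0.0683. FOXJ1 was higher by 0.53 ± 0.25 and did not pass (adjusted p = 0.155, unadjusted p = 0.0479). So 1 of 2 testable members was called, where 16.5% of all items were called and 8.07% were called higher.

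The labels give the passage and the serum-free medium for the Dox groups only, so each Dox effect may hold them too. With Dox in the Ctrl line, which carries the random hairpin, 1 of 4 members was called, where 2.98% of items were called. FOXN4 rose by 0.59 ± 0.15 (adjusted p = 0.0420), with both treated arrays above both untreated ones, the 1 of 4 members without overlap where 45.2% of items had none. The call was lost under 7 of 12 alternatives, with an adjusted p of 0.352 when Ctrl replicate 1 was left out, and of 0.253 or 0.128 when replicate 1 or 2 of Ctrl_Dox was. CDC20B differed by less than 0.01 (adjusted p = 1.00), FOXJ1 by -0.10 ± 0.25 (adjusted p = 0.897) and CCNO by 0.09 ± 0.17 (adjusted p = 0.844), and their arrays with and without Dox overlapped. For CDC20B the 95% confidence interval ran from -0.37 to 0.37 and for CCNO from -0.26 to 0.44.

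The differences between these Dox effects were tested directly. Relative to Ctrl, the sh225 effect was lower for FOXJ1 (adjusted p = 0.00516) and for CCNO (-1.38 ± 0.24, adjusted p = 0.000328), so 2 of 2 were called, against 16.3% of items, 9.61% lower. For FOXJ1, undetected in sh225_Dox, the difference is a bound, -1.04 on the log2 scale or lower with those arrays set at the floor of detected signal. As a description, it was -2.53 or lower for FOXN4, by the same bound, and -2.43 ± 0.25 for CDC20B. Relative to Ctrl, the sh120 effect was higher by 0.62 ± 0.35 for FOXJ1 (adjusted p = 0.469) and by 0.65 ± 0.24 for CCNO (adjusted p = 0.231). Neither of 2 was called by limma, against 0.425% of items (41, and 4 to 90 when 1 array was left out), and 1 of 2, CCNO, had an unadjusted p under 0.05 (0.0123). FOXN4 stood at 1.29 ± 0.22 and CDC20B at 1.53 ± 0.25 there. The comparisons with Ctrl share its arrays.

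The sh225 and sh120 effects share no array. Their difference was -1.67 or lower for FOXJ1, as a bound (adjusted p = 0.000261), and -2.03 ± 0.24 for CCNO (adjusted p = 5.42e-06), 2 of 2 called against 14% of items, 8.37% lower. As a description, it was -3.82 or lower for FOXN4 and -3.95 ± 0.25 for CDC20B.

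**Figure D3:**
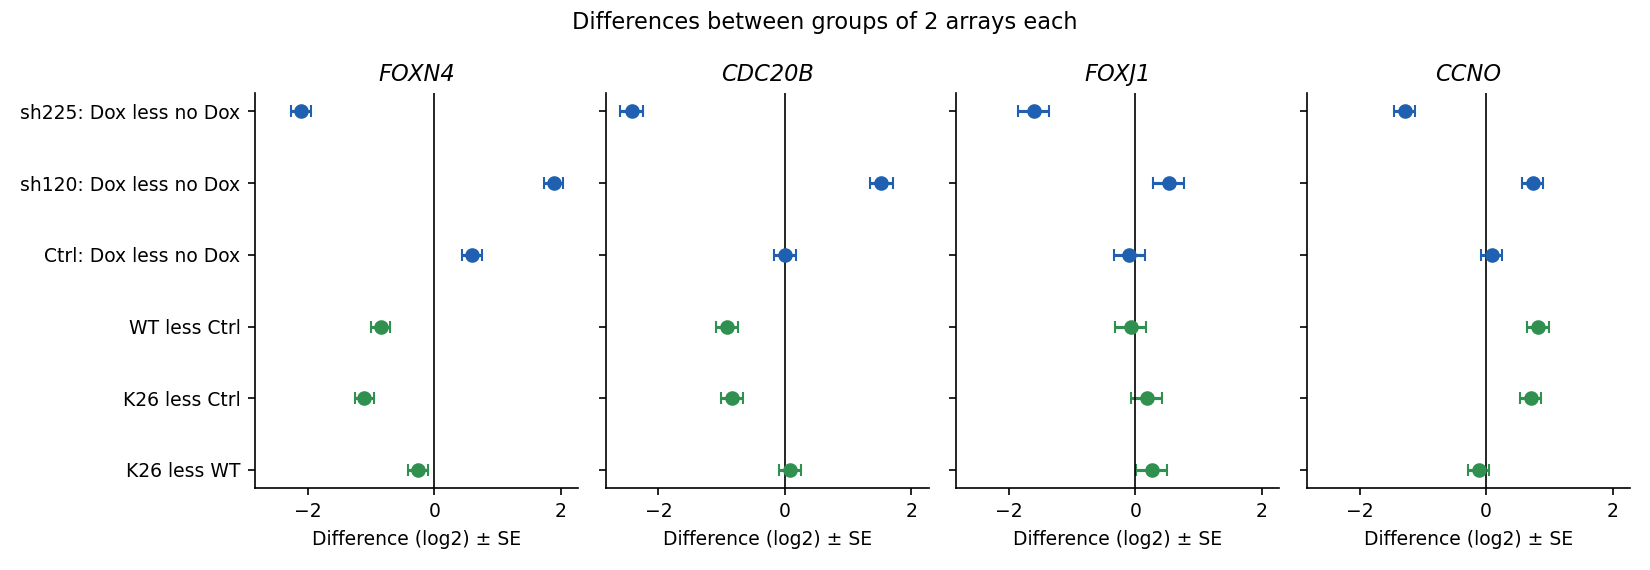
Log2 differences with standard errors for FOXN4, CDC20B, FOXJ1 and CCNO: treated less untreated arrays for the hairpin lines, and the overexpression lines against Ctrl and each other, 2 arrays per group. All 4 genes lie below 0 for Dox in sh225 and above 0 for Dox in sh120; FOXN4 and CDC20B lie below 0 and CCNO above 0 in both overexpression lines against Ctrl. Points of FOXN4 and FOXJ1 that use sh225_Dox, and of FOXN4 that use K26, rest on undetected signal, so their sizes are not exact.

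Opposite calls in the hairpin lines were uncommon. Of 9654 items, 91 (0.943%) were called lower with Dox in sh225 and higher with Dox in sh120, and 42 (0.435%) were called the other way round. Among the 91 were FOXN4 and CDC20B, by choice, and CCNO (log2 -1.29 and 0.74). FOXJ1 was not, since it missed the threshold in sh120. Both FOXN4 and CDC20B were also among the 15 items (0.155%) with differences of at least 2-fold each way.

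**Figure D4:**
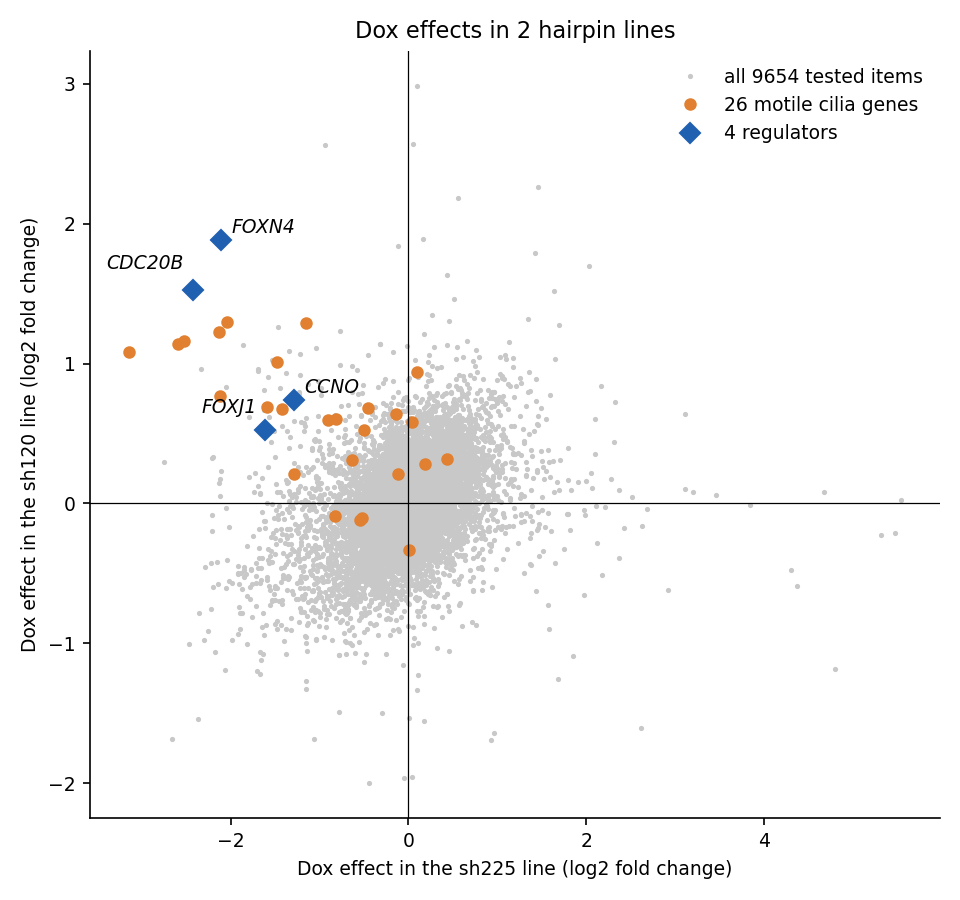
Dox effect in the sh225 line (x axis) against that in the sh120 line (y axis), both as log2 fold change, for all 9654 tested items, with the 4 regulators and 26 motile cilia genes marked. The regulators lie in the upper left, lower in sh225 and higher in sh120, and so do 12 of the 26 cilia genes by both calls; the x values of FOXN4 and FOXJ1 rest on undetected sh225_Dox signal.

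The overexpression lines asked what excess H1.4, wild type or K26A, goes with. FOXN4 was lower in WT than in Ctrl (-0.85 ± 0.15, adjusted p = 0.000391) and at least 1.97-fold lower in K26 (adjusted p = 9.24e-06). CDC20B was lower in WT (-0.92 ± 0.18, adjusted p = 0.000645) and in K26 (-0.84 ± 0.18, adjusted p = 0.000613). CCNO went the other way, higher by 0.82 ± 0.17 in WT (adjusted p = 0.000987) and by 0.71 ± 0.17 in K26 (adjusted p = 0.00158). The arrays of Ctrl did not overlap those of WT or K26 for these 3 genes, as for 64.6% and 75.2% of items. FOXJ1 differed by -0.08 ± 0.25 in WT (adjusted p = 0.849) and 0.18 ± 0.25 in K26 (adjusted p = 0.575), with overlapping arrays. That made 3 of 4 members called in each comparison, against 31.8% of items for WT and 51.4% for K26. Both comparisons use the same Ctrl arrays.

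WT and K26 lie in the second numbering run and Ctrl in the first, so they were also set against untreated sh225, which shares their run; this choice was made after the data were seen. Since the sh225 arrays took part in the choice of FOXN4 and CDC20B, these are described only. FOXN4 stood at -1.82 ± 0.15 in WT and was at least 3.84-fold lower in K26, where it was undetected. CDC20B stood at -1.43 ± 0.18 in WT and -1.35 ± 0.18 in K26. CCNO was higher by 0.77 ± 0.17 (adjusted p = 0.00135) and 0.66 ± 0.17 (adjusted p = 0.00255). FOXJ1 again did not pass, at -0.27 ± 0.25 (adjusted p = 0.437) and -0.01 ± 0.25 (adjusted p = 0.973). Thus 1 of 2 testable members was called each time, against 35.9% of items for WT and 54.9% for K26.

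Between K26 and WT, which carry H1.4 with and without the K26A change, limma called 0 of 4 members, where it called 22.9% of items, and 0 of 4 had an unadjusted p under 0.05. These lines also differed in H1-2, higher in K26 by 1.21 ± 0.15 (adjusted p = 1.62e-05). FOXN4, undetected in K26, was at least 1.09-fold lower there (adjusted p = 0.242). The differences, K26 less WT, were 0.08 ± 0.18 for CDC20B (adjusted p = 0.785), 0.25 ± 0.25 for FOXJ1 (adjusted p = 0.498) and -0.12 ± 0.17 for CCNO (adjusted p = 0.660). Their 95% intervals reached from -0.29 to 0.45 for CDC20B, from -0.27 to 0.78 for FOXJ1 and from -0.46 to 0.23 for CCNO.

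Without Dox, FOXN4 stood 0.97 ± 0.15 and CDC20B 0.51 ± 0.18 above Ctrl in sh225, across the numbering runs, with no overlap of arrays. In sh120 they stood at 0.45 ± 0.15 and -0.21 ± 0.18. These are descriptions, since the sh225 and sh120 arrays took part in the choice of both genes. Of FOXJ1 and CCNO, limma called 0 of 2 in sh225, against 0.456% of items (44, and 0 to 149 when 1 array was left out), and 0 of 2 in sh120, against 0.0207%; 0 of 2 had an unadjusted p under 0.05 in either line. FOXJ1 differed by 0.19 ± 0.25 in sh225 (adjusted p = 0.784) and -0.28 ± 0.25 in sh120 (adjusted p = 0.706). Of 26 motile cilia genes, described further on, 7 were higher in untreated sh225 than in Ctrl, among them DNAAF1, a dynein assembly factor, at 0.87 ± 0.14 (adjusted p = 0.00952). Without CAPSL, ROPN1L and HOATZ, known from earlier results to move, 4 of 23 were higher. The count over all 26 was 1, 2 and 0 when Ctrl replicate 1, sh225 replicate 1 and sh225 replicate 2 were left out in turn.

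The genes that FOXJ1 and RFX factors drive were read from a list of 54 motile cilia genes, of which 43 were on the array and 26 passed the filter. Being called from detected genes, the counts describe those 26. With Dox in sh225, 17 of 26 fell (65.4%, against 18.5% of all items) and 0 rose (against 17.1%), with a median log2 difference of -0.82 against 0.03 over all items. HOATZ, a protein of motile cilia, fell by 3.14 ± 0.16 and ROPN1L, a radial spoke protein, fell by 2.53 ± 0.18. Earlier results of these data had shown HOATZ, ROPN1L and CAPSL to move, so their values here are a description, with no test. The radial spoke head protein RSPH4A was at least 2.04-fold lower (adjusted p = 3.57e-07). CAPSL, a calcium-binding protein, was at least 4.91-fold lower, but the series matrix gives that probe 0.08 and another CAPSL probe -1.24, so its identity is uncertain. DNAH5, DNAI2, IFT88 and IFT57 were among the 9 that did not pass.

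With Dox in sh120, 16 of the 26 rose (61.5%, against 8.07% of all items) and 0 fell (against 8.43%), at a median of 0.62. TEKT1, a tektin of ciliary microtubules, rose by 1.30 ± 0.22 (adjusted p = 0.000770) and RSPH4A by 1.23 ± 0.22 (adjusted p = 0.00106). ROPN1L stood at 1.17 ± 0.18, as a description. CLXN, a calaxin of the outer dynein arm, was at least 1.51-fold higher. It was detected on 3 arrays and passed the filter only through them, so its value is a description. With Dox in Ctrl, limma called 0 of 26, against 2.98% of all items, at a median of 0.04, and 1 of 26 had an unadjusted p under 0.05. CAPSL, ROPN1L and HOATZ were known from earlier results to move; without these 3, 14 of 23 fell in sh225 and 13 of 23 rose in sh120.

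Tested against each other, the sh225 and sh120 effects differed in 20 of the 26 cilia genes, all lower in sh225 (76.9%, against 8.37% of all items). Against Ctrl, the sh225 effect was lower in 15 (57.7%, against 9.61% of all items). The sh120 effect was higher than that of Ctrl in 3 (11.5%, where 0.425% of all items were called in either direction). They were HOATZ (1.20 ± 0.22, adjusted p = 0.0193), ROPN1L (1.18 ± 0.26, adjusted p = 0.0473) and CAPSL (1.12 ± 0.20, adjusted p = 0.0169). These 3 are the genes known from earlier results to move, so their p-values only describe. Without them, the sh225 effect was lower than that of Ctrl in 12 of 23 and than that of sh120 in 17 of 23. The sh120 effect was then higher than that of Ctrl in 0 of 23. The 3 calls against Ctrl rest on single arrays: 0 of 26 were called when Ctrl replicate 1, Ctrl_Dox replicate 2, either sh120 array or sh120_Dox replicate 2 was left out, and 1 without Ctrl replicate 2. Of the 26, 12 were called both lower in sh225 and higher in sh120, 46.2% of the tested list and 13.2% of the 91 items with that pattern. Of 19 tested cilia genes with a RefSeq promoter window, 10 (52.6%) held GTTGCC, and 14.6% of 27305 genes did. The list was drawn from known cilia components and FOXJ1 or RFX targets, so a raised share of this half-site is partly built in. Genes that moved and genes that did not were not compared for it. TTTNNCGC was in 1 of 19 (5.26%), and in 8.23% of all genes.

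In WT against Ctrl, 13 of the 26 cilia genes were lower and 2 higher, at a median of -0.45, where 15.5% of all items were lower. Without CAPSL, ROPN1L and HOATZ, 10 of 23 were lower and 2 higher. HOATZ was at least 3.78-fold lower (adjusted p = 2.87e-08) and ZMYND10, a dynein assembly factor, at least 1.89-fold lower (adjusted p = 0.000223). The axonemal dyneins DNAH5 and DNAI2 were the higher ones, at least 1.64-fold (adjusted p = 0.00187) and 1.24-fold (adjusted p = 0.0342). In K26 against Ctrl, 17 of the 26 were lower and 4 higher, where 27.2% of all items were lower. Without the same 3 genes, 14 of 23 were lower and 4 higher. Against the same-run sh225 line, 21 of the 26 were lower and 2 higher in WT, and 20 lower and 3 higher in K26. Of all items, 35.9% and 54.9% were called there in either direction. Untreated sh225 itself stood above Ctrl for these genes, at a median of 0.63 across the runs. Its part in the larger counts was not tested. FOXJ1 did not pass the test in any of these 4 comparisons. Between K26 and WT, 6 of 26 (23.1%) were called, where 22.9% of all items were; 5 were lower in K26, TEKT1 at -0.74 ± 0.22 (adjusted p = 0.0208), and 1 higher.

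Other markers moved as well, and their part in these results was not tested. ACTA2, the 1 basal marker detected, was called higher with Dox in sh225 (0.49), sh120 (0.55) and Ctrl (0.62), and in K26 against Ctrl (0.55). COL1A1, the 1 fibroblast marker of 6 detected, was called lower than in Ctrl in WT (-0.49) and K26 (-0.35). The secretory marker SCGB3A1 fell with Dox in sh225 (-0.91 ± 0.16, adjusted p = 0.000250) and was lower in WT (-1.02 ± 0.16, adjusted p = 0.000112) and K26 (-0.91 ± 0.16, adjusted p = 0.000141) than in Ctrl; of 3 secretory markers on the array it alone was detected, and their summed raw intensity was 329.25 to 450.6 over the groups. Of 11 luminal markers, 2 rose and 2 fell with Dox in sh225 (36.4% called, against 35.6% of all items). In sh120 2 rose and 1 fell (27.3%, against 16.5%). In Ctrl 0 were called, against 2.98% of all items, with 2 at an unadjusted p under 0.05. In WT 4 were lower and 2 higher than in Ctrl (54.5% called, against 31.8% of all items). In K26 6 were lower and 1 higher (63.6%, against 51.4%). PGR, the progesterone receptor, stood at -1.22 ± 0.12 (adjusted p = 6.99e-07) in WT and -1.75 ± 0.12 (adjusted p = 2.29e-09) in K26. ESR1, the oestrogen receptor, stood at -0.82 ± 0.16 (adjusted p = 0.000658) and -1.02 ± 0.16 (adjusted p = 3.11e-05). Of 6 leukocyte markers CD14 alone was detected, on 4 arrays, while PTPRC, CD3D, CD3E, CD79A and LYZ were undetected on all arrays. CD14 was at least 1.54-fold higher in WT and at least 3.26-fold higher in K26 than in Ctrl, where it was undetected. It passed the filter only through arrays where it was high, so these values are a description, with no test. Summed leukocyte intensity was 409.8 to 521.2 in the hairpin lines, 610.2 in WT and 722.5 in K26. The summed luminal intensity was 56594 in sh225 and 56712 in sh225_Dox, 43370 in sh120 and 47607 in sh120_Dox, 48692 in Ctrl, 55112 in WT and 47644 in K26.

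**Figure D5:**
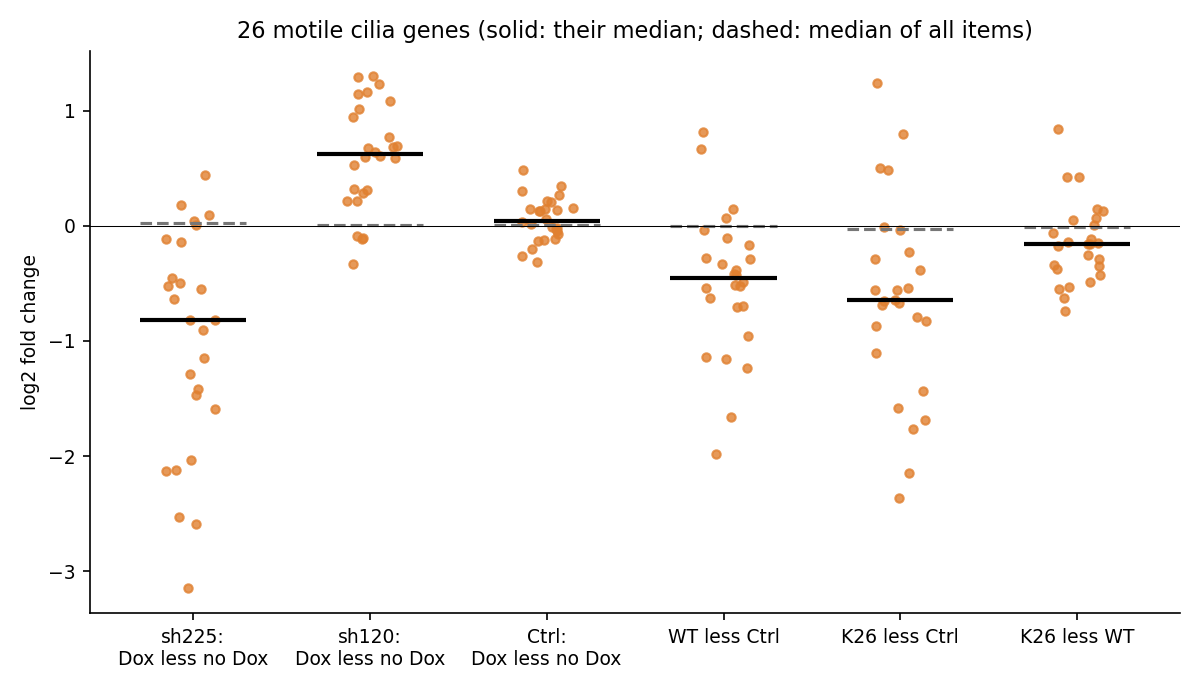
Log2 fold changes of the 26 tested motile cilia genes in 6 comparisons, 1 point per gene; solid bars are their medians and dashed bars the medians of all tested items. The median is -0.82 for Dox in sh225, 0.62 for Dox in sh120, 0.04 for Dox in Ctrl and -0.45 for WT against Ctrl.

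Centriole amplification and its E2F and Myb control were read from 21 genes, 20 on the array and 16 tested. With Dox in sh225, 6 fell (37.5%, against 18.5% of all items) and 1 rose (6.25%, against 17.1%). The largest falls were of CDK1, the mitotic kinase (-2.21 ± 0.14, adjusted p = 6.82e-10), STIL, a centriole assembly factor (-1.73 ± 0.18, adjusted p = 3.68e-07), and GMNN, geminin, which restrains DNA replication (-1.72 ± 0.21, adjusted p = 3.04e-06). CEP152, a centriole scaffold, was at least 1.39-fold lower (adjusted p = 3.60e-07), and E2F4 rose by 0.41 ± 0.12 (adjusted p = 0.00941). These genes also serve ordinary dividing cells. With Dox in sh120 only PLK4, the kinase that starts centriole duplication, passed (0.62 ± 0.14, adjusted p = 0.00550), 6.25% against 16.5% of all items. Its sh225 effect less its sh120 effect was -2.19 ± 0.19 (adjusted p = 1.80e-07). In Ctrl limma called 0 of 16, and 2 of 16 had an unadjusted p under 0.05. Less the Ctrl effect, the sh225 effect was lower in 6 and higher in 0 (37.5% called, against 16.3% of all items). The sh120 effect less that of Ctrl was called in 0 of 16, against 0.425%. In WT against Ctrl 6 were called, 37.5% against 31.8% of all items: 4 were higher, CEP152 by 1.26 ± 0.17 (adjusted p = 2.35e-05), and 2 lower, among them MYB, a transcription factor of early multiciliated cells, at -0.78 ± 0.15 (adjusted p = 0.000604).

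Notch genes did not move 1 way. Of 40 listed, 38 were on the array and 24 tested. With Dox in sh225, 7 rose (29.2%, against 17.1% of all items) and 5 fell (20.8%, against 18.5%): the receptor NOTCH1 rose by 1.10 ± 0.19 (adjusted p = 0.000141) and PSEN2, a γ-secretase subunit, by 0.71 ± 0.13 (adjusted p = 0.000331), while HES6, an antagonist of HES1, fell by 0.63 ± 0.16 (adjusted p = 0.00497) and the ligand DLL1 by 0.61 ± 0.13 (adjusted p = 0.000880). With Dox in sh120, NOTCH2 rose (0.56 ± 0.17, adjusted p = 0.0279) and LFNG, which modifies Notch receptors, fell (-0.30 ± 0.10, adjusted p = 0.0496), 8.33% called against 16.5% of all items. In Ctrl PSEN2 alone rose (0.55 ± 0.13, adjusted p = 0.0221), 4.17% against 2.98%. Less this Ctrl effect, the sh225 effect was higher in 2 and lower in 3 of 24 (20.8% called, against 16.3% of all items). The sh120 effect less that of Ctrl was called in 0 of 24, against 0.425%. In WT against Ctrl 8 were higher (33.3%, against 16.3%), with the Notch target HES1 at 1.10 ± 0.20 (adjusted p = 0.000315), and 5 lower (20.8%, against 15.5%), with LFNG at -1.55 ± 0.10 (adjusted p = 2.12e-09) and DLL1 at -1.55 ± 0.13 (adjusted p = 3.51e-08). None of the 24 was among the 91 items lower in sh225 and higher in sh120.

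Paralogs of the members, 13 of 21 tested, showed none of that opposite pattern either. With Dox in sh225, 7 fell (53.8%, against 18.5% of all items) and 2 rose (15.4%, against 17.1%), the falls led by the mitotic cyclins CCNB2 (-2.15 ± 0.11, adjusted p = 2.61e-11) and CCNA2 (-1.79 ± 0.15, adjusted p = 1.96e-08). With Dox in sh120, 4 fell (30.8%, against 8.43%), CCNB1 (-0.69 ± 0.17, adjusted p = 0.0120), CCNA2 (-0.60 ± 0.15), CCNB2 (-0.42 ± 0.11, adjusted p = 0.0127) and RFX5, an activator of MHC class II genes (-0.37 ± 0.12, adjusted p = 0.0362), and CCNI rose (7.69%, against 8.07%). CCNO, the cyclin of multiciliated cells, rose there, while these mitotic cyclins fell. Less the Ctrl effect, the sh120 effect was called for 0 of the 13 paralogs, against 0.425% of all items, and not for CCNO (adjusted p = 0.231). The sh225 effect less that of Ctrl was lower in 6 and higher in 1 (53.8% called, against 16.3%).

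At the chromosome 5 locus GPX8 was detected on all 16 arrays and its neighbour GZMA on none. GPX8 levels were 9.52 and 9.10 in sh225 and 8.98 and 8.71 in sh225_Dox, a fall of 0.46 ± 0.16 (adjusted p = 0.0290). In sh120 they were 9.46 and 9.51, and 9.55 and 9.82 with Dox (0.20 ± 0.16, adjusted p = 0.412). The treated arrays lay below the untreated ones in sh225, as in 31.7% of all items, and above in sh120, as in 30.4%. Both shifts were smaller than those of CDC20B and CCNO. With Dox in Ctrl GPX8 stood at 0.21 ± 0.16 (adjusted p = 0.577). Less this Ctrl effect, the sh120 effect was -0.01 ± 0.22 (adjusted p = 0.993) and the sh225 effect -0.67 ± 0.22 (adjusted p = 0.0473). In WT against Ctrl the neighbours CDC20B and CCNO went apart, while GPX8 stood at -0.06 ± 0.16 (adjusted p = 0.800).

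Likeness of pattern was measured as Pearson's r of the normalized log2 levels over the 16 arrays, as a description in which all arrays of a group share a treatment. The genes most like FOXN4 were the dynein intermediate chain gene DNAI7 (r = 0.976), CDHR3 (0.972), KCNH3 (0.959), TEKT1 (0.958) and CFAP107 (0.954). For CDC20B they were RSPH4A (0.954), USP13 (0.944), KATNAL2 (0.935), PITPNM1 (0.934) and DNAJA4 (0.930). For CCNO they were REEP1 (0.930), ELF5 (0.923), ADIPOR2 (0.919), BIRC5 (0.918) and TTL (0.915). For FOXJ1, whose signal was dim, the values were lower: RAB8A (0.867), LCP1 (0.866), PPDPF (0.853), TRIP10 (0.847) and DNAL4 (0.847). Over the 8 group means, 3, 4, 2 and 1 of the 5 stayed among the closest for FOXN4, CDC20B, CCNO and FOXJ1. Among the members, FOXN4 and CDC20B correlated at 0.919 and FOXJ1 and CCNO at 0.831, while FOXN4 and CCNO correlated at 0.171. The 16 arrays include those of sh225 and sh120, on which FOXN4 and CDC20B were chosen for the same opposite moves. Their correlation, and which genes were most like each, therefore follow in part from that choice.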

How the data were processed

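Bead arrays were hybridised with labelled cRNA, starting from 100 ng RNA per sample (RIN 9.5), per the labels' protocols. The authors deposited a table of raw intensities with a detection p-value per probe and array, neither background-subtracted nor scaled, and a series matrix of linear intensities whose scale, centring and normalization are not given in the sources used here (medians 133.6 to 134.5). The submitters' processing notes name GenomeStudio 1.6.0.

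Normalization used neqc (limma 3.58.1, R 4.3.3): normexp background correction with offset 16, its control probes' level inferred through the detection p-values, then quantile normalization and log2. A probe stayed in when 2 or more of the 16 arrays detected it (p under 0.01), which left 11258 of 24530, and the brightest probe per symbol was tested, giving 9654 items (9172 named). Of 24530 probes, 23266 had 1 symbol from the platform annotation, 1264 had none, and 23142 matched a RefSeq gene identifier. All 16 arrays entered one limma fit that had a coefficient for each group and a mean-variance trend in eBayes, leaving 8 residual degrees of freedom. Adjustment was Benjamini-Hochberg over all items, at a threshold of 0.05. The number of arrays limits precision: the median SE of a difference was 0.152. Where a gene was undetected in a group, "at least N-fold" compares the brighter group's mean with a floor, on each array the lowest signal of any detected probe or, if higher, that of the gene itself. A gene detected on few arrays passed the filter through groups where it was high, so its direction against the other groups was partly fixed by the filter. The fit was tested on simulated data.

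The members and gene lists were chosen with earlier results of these data known. The planned tests of FOXN4 and CDC20B in untreated sh225 and sh120 against Ctrl were dropped, since those arrays took part in their choice, and count only FOXJ1 and CCNO. Named genes are the members, up to 4 called genes per list and direction, and the 5 items most correlated with each tested member; others are named where a result turns on them. The alternatives were no background correction, median scaling, the series matrix, other filters, each probe alone, no trend, 1 numbering run, a replicate block and each array left out. The labels number replicates 1 and 2 without saying that numbers pair arrays, so the main fit has no block.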

Additional observations from a re-analysis of the deposited data

Results flagged for a closer look

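The Dox effect on FOXJ1 and CCNO differed between hairpin lines by a direct test of the difference in limma. For FOXJ1, the sh225 effect less the Ctrl effect was -1.51 ± 0.35 (log2 ± SE, adjusted p = 0.00516), and the sh225 effect less the sh120 effect was -2.14 ± 0.35 (adjusted p = 0.000261). For CCNO the same differences were -1.38 ± 0.24 (adjusted p = 0.000328) and -2.03 ± 0.24 (adjusted p = 5.42e-06). FOXJ1 was not detected on either sh225_Dox array, so its fitted sizes are not exact; with those arrays at the floor of detected signal, its differences were -1.04 or lower and -1.67 or lower. The sh225 arrays stand in another numbering run than those of Ctrl and sh120. Each Dox effect was taken within a run. A Dox effect that differs by line and one that differs by run cannot be told apart here.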

How the results depend on the processing

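The count of members called with Dox in Ctrl, 1 in the reported fit, was 0 with median scaling, the series matrix, no filter, probes detected on all arrays and the replicate block, and 0 to 1 when 1 array was left out; the adjusted p of FOXN4 was 0.0633, 0.0531, 0.125 and 0.0512 under median scaling, the series matrix, no filter and the block. With probes detected on all arrays, which drops FOXJ1 and FOXN4, the counts were 1 in place of 2 for Dox in sh225, for its difference from Ctrl and for its difference from sh120. With 1 array left out, the count for Dox in sh120 was 0 to 1 (reported 1). It was 2 throughout for Dox in sh225 and for both of its differences, 3 for WT and for K26 against Ctrl, and 0 for K26 against WT, for untreated sh225, for untreated sh120 and for the difference of sh120 from Ctrl. Dropping the filter raised the count to 3 in sh225 and in its difference from Ctrl, RFX2 being the added gene. Against untreated sh225 of the same numbering run, the counts for WT and K26 were 1 in place of 3, since FOXJ1 and CCNO alone were tested there. No call reversed; CDC20B in untreated sh120 less Ctrl, described only at -0.21, was 0.043 and 0.030 without Ctrl replicate 1 and sh120 replicate 2, and -0.46 without Ctrl replicate 2.

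The series matrix, whose values are compressed near the background, gave -0.96 for FOXN4 and -1.52 for CDC20B in sh225, and 1.31 and 1.23 in sh120. Without background correction FOXN4 stood at -1.40 and 1.59. Motile cilia genes called lower in sh225 numbered 14 to 18 of 26 over the fits that tested all 26, with 0 or 1 higher, and those called higher in sh120 numbered 12 to 16 with 0 lower. The difference of sh120 from Ctrl called 0 to 7 of them higher (reported 3). Median scaling moved the median of all items to 0.12 for Dox in sh225 and 0.13 for WT against Ctrl, and the calls to 2318 higher and 1355 lower (reported 1650 and 1782) and 2562 and 925 (reported 1570 and 1499). It gave 824 and 528 for Dox in sh120 (reported 779 and 814), 822 and 737 for sh225 less Ctrl (reported 643 and 928) and 2927 and 2001 for K26 against Ctrl (reported 2335 and 2627).

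Total calls for sh120 less Ctrl (41) were 20, 65, 24 and 17 under median scaling, the series matrix, no filter and probes detected on all arrays, and for untreated sh225 against Ctrl (44) they were 176, 81, 25 and 5, and 71 with the block. With 1 array left out, sh120 less Ctrl called 6 and 18 (without Ctrl replicate 1 and 2), 9 and 26 (Ctrl_Dox), 16 and 7 (sh120), 22 and 4 (sh120_Dox), 78 and 90 (sh225_Dox) and 22 and 22 (WT). Untreated sh225 called 1 and 149 (Ctrl), 26 and 26 (sh120), 21 and 0 (sh225), 88 and 79 (sh225_Dox) and 29 (WT replicate 1), and untreated sh120, with 2 reported, 0 to 66. Dox in sh120 (1593) called 654 and 668 (sh120) and 726 and 826 (sh120_Dox), Dox in Ctrl (288) 133 (Ctrl replicate 1), 136 and 134 (Ctrl_Dox), Dox in sh225 (3432) 2273 (sh225 replicate 2), WT against Ctrl (3069) 1970 (Ctrl replicate 1) and 1841 (WT replicate 1), and K26 against WT (2208) 1128 and 1347 (WT) and 999 (K26 replicate 2).

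Same-numbered arrays deviated together in 9 of 28 pairs of groups (r over 0.1) and in opposite directions in 7 (r under -0.1). This cannot settle if the numbers pair arrays, since technical spread of single arrays enters these deviations too. The replicate block ended the FOXN4 call in Ctrl (adjusted p = 0.0512) and changed no other call of a member. A crossed pairing, chosen after seeing the data, called 308 items in Ctrl (288 without), 3141 for WT (3069) and 5039 for K26 (4962) against Ctrl, with 1 member in Ctrl.

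Dim signal limits FOXJ1, and FOXN4 in sh225_Dox and K26: there only a bound can be given. With 2 arrays per group, a member that missed the threshold is not shown to be unchanged.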
